A study of Mus musculus with 20 samples.

Results

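The comparison set 2 RNA libraries of dorsal medium spiny neuron tissue (dMSN 1 and dMSN 2) against 2 libraries of precursor tissue, 1 hippocampal (HP) and 1 striatal (SP). The 4 libraries were chosen by their labels, out of 6 RNA libraries and 20 samples in the series, and the 2 libraries of young neurons were left out so that the change was read from end to end. All 4 libraries were polyA RNA from brain that had been frozen, cryosectioned and microdissected from male, wild type C57BL/6 mice, as the labels give it. The dMSN source is written as dorsal medial spiny neurons in the labels, HP and SP are given as hippocampal and striatal precursors, and ages, and whether dMSN 1 and dMSN 2 came from separate animals, are not given in the sources used here. The p-values therefore measure the spread between these samples, which may be technical within dMSN and which contains the difference between regions within the precursor side. Stage and region differ together between HP and dMSN and cannot be told apart there.

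Medium spiny neurons are the GABA-releasing projection neurons of the striatum. They receive glutamate input from cortex and thalamus and dopamine input from the midbrain, and they read dopamine through D1 or D2 receptors that act on cyclic AMP and on the phosphatase inhibitor Ppp1r1b (DARPP-32). Their precursors are cycling neuroepithelial and radial glial cells of the ventral forebrain, which leave the cell cycle, pass through a migrating immature state and then build axons, dendritic spines and synapses.

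Levels are given as CPM, the count of a gene relative to all counts assigned to genes in the library, after scaling by the trimmed mean of M values (TMM). Where values are given in pairs, HP comes before SP and dMSN 1 before dMSN 2. Between 31282185 and 35874646 counts were assigned in the precursor libraries and between 145713678 and 152347673 in the dMSN libraries, so the dMSN libraries were the deeper ones. A count of 0 (upper limit 3 counts, counting error only) allowed 0.0834, 0.0733, 0.0225 and 0.0236 CPM in HP, SP, dMSN 1 and dMSN 2. Over the 19107 genes tested, Pearson's r of log2 CPM was 0.985 for the precursor pair, 0.991 for the dMSN pair and 0.696 to 0.715 across the sides. These are correlations across genes, which are not independent replicates.

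The precursor libraries did not match their male labels in the sex-linked transcripts. The level of Xist, the RNA of X inactivation and a mark of female cells, was 830.2 (HP), 1056 (SP), 0.0301 (dMSN 1) and 0 CPM (dMSN 2). Summed over Ddx3y, Eif2s3y and Kdm5d, which lie on the Y chromosome, the counts came to 672 for HP, 0 for SP, 8258 for dMSN 1 and 9348 for dMSN 2. Of the sex-linked list, 1 of 10 tested genes was higher and 6 were lower in dMSN, and the Y-linked Ddx3y, Kdm5d and Uty did not pass, although Ddx3y passed with either precursor library left out. The gene called higher was Eif2s3y, with a log2 change of 3.98 (adjusted p = 0.023) that was 2.91 without SP, and its call was lost without dMSN 1 (adjusted p = 0.12), without dMSN 2 (adjusted p = 0.13), with DESeq2 (adjusted p = 0.24) and with all 6 libraries in the fit (adjusted p = 0.16). Without HP it stood against a count of 0 in SP, which gives no fold. The strand setting of the counting is not given in the sources used here, so reads of Xist and of its antisense partner cannot be told apart. The part of sex in the other differences was not tested, and it cannot be told apart from stage for SP.

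Markers of the labelled types were found on the labelled side. Ppp1r1b stood at 0.195 (HP), 0.757 (SP), 2328 (dMSN 1) and 2254 CPM (dMSN 2). Lin28a, an RNA-binding protein of early progenitors that blocks maturation of let-7 microRNAs, stood at 32.7 (HP), 47.4 (SP), 0.0376 (dMSN 1) and 0.0315 CPM (dMSN 2). The sides did not overlap in either gene, as in 90.9% of all genes tested. Nrgn, a calmodulin-binding protein of dendritic spines, stood at 1.83 (HP), 1.15 (SP), 4563 (dMSN 1) and 5548 CPM (dMSN 2), and Mbp, a main protein of myelin, at 24.3 (HP), 30.2 (SP), 2937 (dMSN 1) and 2437 CPM (dMSN 2). Myelin is made by oligodendrocytes and not by neurons, so the dMSN libraries held RNA of other cells as well, and in such bulk samples fewer cells of a type and less RNA per cell cannot be told apart.

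A gene was called when its adjusted p from edgeR's quasi-likelihood F test (Benjamini-Hochberg over all genes tested) was under 0.05. Of the 19107 genes tested, 15088 were called, which is 79%. In dMSN 7947 genes (41.6%) were higher and 7141 (37.4%) were lower, and 4019 did not pass. Changes of at least 4-fold were called upward in 4484 genes (23.5%) and downward in 3489 (18.3%). The log2 change over all genes had a median of 0.14. With most genes called, a count of members says little without its size, so each group below is read against these shares. The log2 changes are dMSN minus the precursor mean, and SE is a standard error worked back from the F statistic of the test.

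The fit was repeated with HP left out, so that the library labelled as striatal precursors stood alone against dMSN, and with SP left out. SP is striatal by its label. Lhx6, Dlx1, Dlx2, Dlx6 and Bcl11b were lower in SP than in HP. Among all 19107 genes tested, 9858 were higher in SP and 9219 in HP. Of 30 genes of medium spiny neuron signalling, 18 were higher in SP and 12 in HP. Of 27 midbrain, hindbrain and spinal cord genes, 25 were higher in SP. The lone precursor library was then assumed to vary as the dMSN pair did. Of the 15088 genes called with all libraries, 13656 kept their call without HP and 13571 without SP, and none of those tested reversed.

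**Figure D1:**
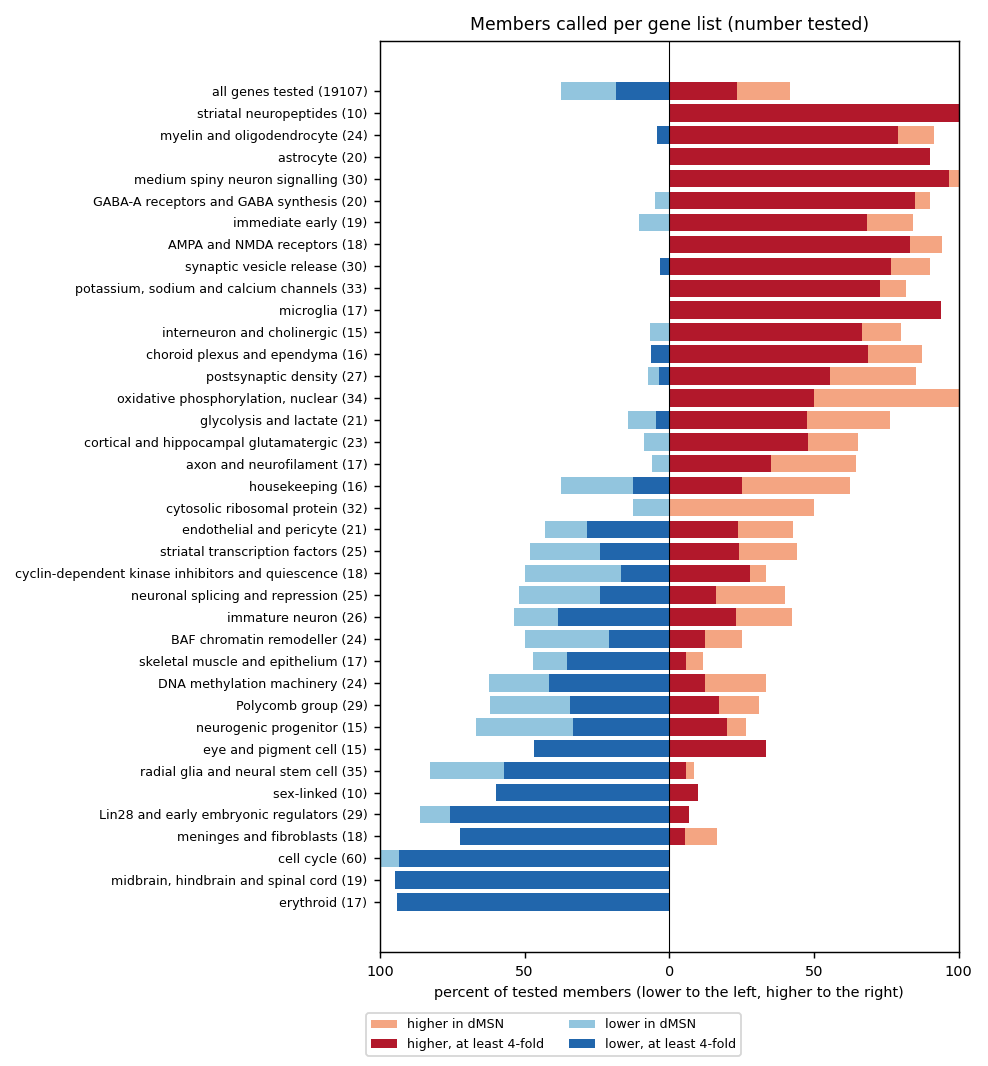
Bars give the percent of tested members of each gene list called higher (right, red) or lower (left, blue) in dMSN than in the precursor libraries, with the darker part for changes of at least 4-fold; the number tested is in brackets. The top bar is all 19107 genes tested, of which 41.6% were higher and 37.4% lower, and lists are ordered by their median log2 change.

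The signalling genes of medium spiny neurons were higher in dMSN throughout. All 30 members in the table of 31 listed were tested and called higher, 29 of them by at least 4-fold, with a median log2 change of 5.29. Rasd2 (Rhes), a striatal GTP-binding protein, stood at 0.834 and 0.44 CPM in the precursors and 359.5 and 351 CPM in dMSN (log2 change 9.14, SE 0.28, adjusted p = 3.8e-06). The adenosine receptor Adora2a, which marks the neurons of the indirect pathway, went from 4.09 and 4.08 CPM to 290.1 and 241 CPM (log2 change 6.02, SE 0.17, adjusted p = 3.6e-06). Rgs9, which speeds the shut-off of G proteins, went from 4.81 and 4.64 CPM to 449.7 and 366 CPM (log2 change 6.43, SE 0.18, adjusted p = 3.7e-06). Both dMSN libraries lay far above both precursor libraries in each of these genes.

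The dopamine receptors themselves began from different levels in the precursor libraries. Drd1a, the D1 receptor, stood at 0.167 (HP), 0.611 (SP), 70.4 (dMSN 1) and 78.5 CPM (dMSN 2). Drd2, the D2 receptor, stood at 0.417 (HP), 1.76 (SP), 172 (dMSN 1) and 140.5 CPM (dMSN 2). Both were higher in SP than in HP and far higher in both dMSN libraries, so the size of their change depended on the precursor library. The log2 change of Drd1a was 7.54 (adjusted p = 1.5e-05), with 6.89 when HP and 8.76 when SP was left out. For Drd2 it was 7.13 (adjusted p = 4.7e-05), with 6.44 without HP and 8.51 without SP. Ppp1r1b rose by a log2 change of 12.19 (SE 0.51, adjusted p = 7.5e-06), with 11.53 without HP and 13.48 without SP. The orphan receptor Gpr6 had a single count over both precursor libraries against 18820 in dMSN, a ratio of 5560 (95% counting interval 998 to 220000).

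The enzymes that make and break down cyclic nucleotides were above 9 CPM in both precursor libraries and also rose. Adcy5, the main striatal adenylyl cyclase, went from 13.7 and 17.7 CPM to 523 and 436 CPM (log2 change 4.93, SE 0.20, adjusted p = 7.5e-06). Gnal, the G protein subunit that couples dopamine and adenosine receptors to it, went from 9.06 and 11.3 CPM to 354 and 353 CPM (log2 change 5.12, SE 0.17, adjusted p = 4.6e-06). The phosphodiesterase Pde10a went from 12.7 and 19.4 CPM to 139 and 166 CPM (log2 change 3.24, SE 0.23, adjusted p = 4.6e-05), and Pde1b went from 25 and 44.5 CPM to 840.5 and 779 CPM (log2 change 4.54, SE 0.31, adjusted p = 3.6e-05). The member with the smallest change was Ryr1, a calcium release channel, with a log2 change of 1.86. All libraries of a side lay on 1 side of the other in these genes, as in 90.9% of all genes tested.

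**Figure D2:**
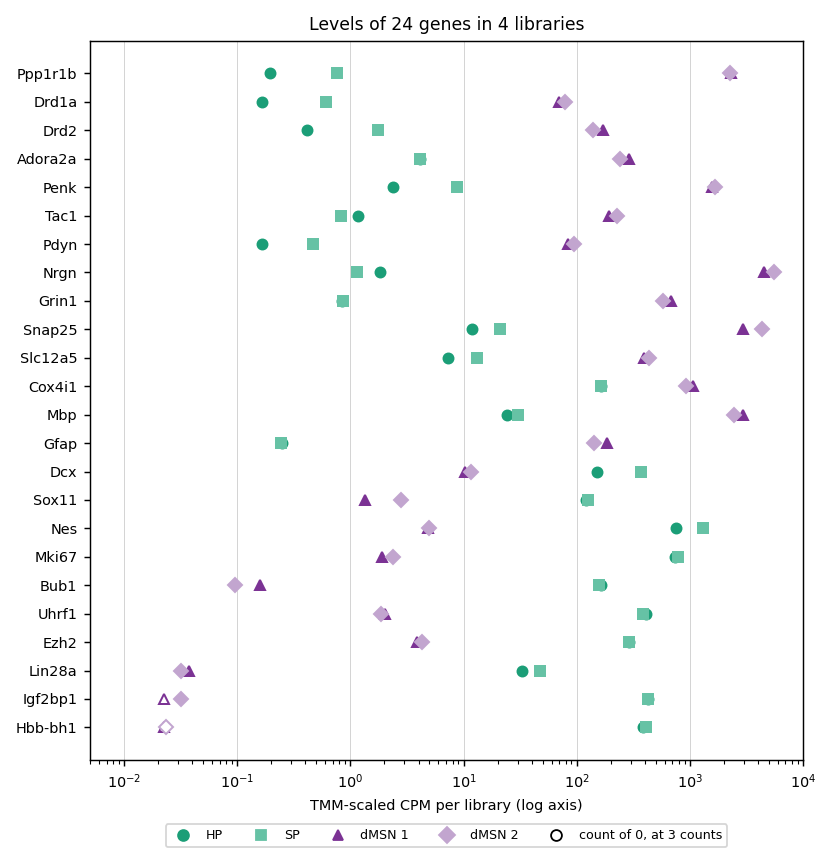
Each row is 1 gene, and the symbols give its TMM-scaled CPM in HP, SP, dMSN 1 and dMSN 2 on a log axis; open symbols mark a count of 0, drawn at the level of 3 counts. In each row the purple dMSN symbols lie apart from the green precursor symbols, to the right from Ppp1r1b to Gfap and to the left from Dcx to Hbb-bh1. Of all genes tested, 90.9% had sides that did not overlap.

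Striatal neuropeptide genes were higher in dMSN as well. All 10 listed were tested and higher by at least 4-fold, with a median log2 change of 6.98. Penk, the enkephalin precursor of indirect pathway neurons, stood at 2.39 (HP), 8.75 (SP), 1576 (dMSN 1) and 1673 CPM (dMSN 2), and its log2 change of 8.18 (adjusted p = 7.5e-05) was 7.5 without HP and 9.37 without SP. Tac1, the substance P precursor of direct pathway neurons, stood at 1.17 and 0.831 CPM in the precursors and 192 and 225 CPM in dMSN (log2 change 7.71, SE 0.22, adjusted p = 3.7e-06). Pdyn, the dynorphin precursor, stood at 0.167 (HP), 0.464 (SP), 83 (dMSN 1) and 95.7 CPM (dMSN 2). Npy, made in striatum by a class of interneurons, went from 0.111 and 0.171 CPM to 211 and 248 CPM (log2 change 10.63, SE 0.24, adjusted p = 3.5e-06). The smallest change was in Adcyap1, the precursor of PACAP, at 2 and 5.25 CPM in the precursors and 12.6 and 16.8 CPM in dMSN (log2 change 2.01, adjusted p = 0.0064). Its call was lost without dMSN 2, at a log2 change of 1.81 and adjusted p = 0.065, and the change was 1.45 without HP and 2.84 without SP.

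The promoter of Sst, which encodes somatostatin, another interneuron peptide, is shown because it is a textbook target of cyclic AMP signalling. Sst stood at 14.3 (HP), 5.11 (SP), 721 (dMSN 1) and 688 CPM (dMSN 2), higher in both dMSN libraries, with a log2 change of 6.19 (adjusted p = 8.5e-05), 7.08 without HP and 5.59 without SP. The 120 bases before the RefSeq start site (GRCm38.p6, chr16:23890845-23890964, minus strand) hold the cyclic AMP response element TGACGTCA, in capitals, beginning 48 bases upstream of the start.
Sst: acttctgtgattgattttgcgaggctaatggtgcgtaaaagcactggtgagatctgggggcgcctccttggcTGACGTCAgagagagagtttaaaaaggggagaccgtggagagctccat
Of the 10 peptide genes, 8 had a promoter in the table, and TGACGTCA lay within the 300 bases (250 before and 50 after the start, both strands) of 2 of them, Sst and Cartpt. It lay in 2.03% of all 27025 genes with a promoter there. A match is a description of the letters and not evidence that a factor binds.

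Of 25 transcription factors of the striatal lineage tested, 11 (44%) were higher and 12 (48%) lower in dMSN, close to the 41.6% and 37.4% of all genes, with a median log2 change of -0.48. Among those lower, Ikzf2 (Helios), a zinc finger protein of newborn striatal neurons, went from 15.4 and 13.6 CPM to 0.789 and 0.732 CPM (log2 change -4.25, SE 0.22, adjusted p = 1.4e-05). Ebf1, a factor of the direct pathway lineage, went from 43.5 and 70.4 CPM to 5.67 and 4.61 CPM (log2 change -3.47, SE 0.27, adjusted p = 6.7e-05). Sp8, which acts in precursors of the ganglionic eminences, went from 31.5 and 29.1 CPM to 4.6 and 3.72 CPM (log2 change -2.86, SE 0.18, adjusted p = 2.9e-05). In each of these the precursor libraries lay well above both dMSN libraries.

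Other lineage factors rose. Rxrg, a retinoid X receptor, went from 2.22 and 1.66 CPM to 75 and 77.4 CPM (log2 change 5.30, SE 0.19, adjusted p = 5.1e-06). Mef2c, which acts in neuron survival and synapse number, went from 15.5 and 15.4 CPM to 147 and 254 CPM (log2 change 3.70, SE 0.28, adjusted p = 5.7e-05). Dlx6, a homeobox gene of the GABA lineage, went from 4.78 and 2.71 CPM to 73.2 and 56.7 CPM (log2 change 4.12, SE 0.30, adjusted p = 5e-05), and Bcl11b (Ctip2), required for medium spiny neuron differentiation, went from 46.4 and 26.2 CPM to 97.2 and 111 CPM (log2 change 1.52, SE 0.27, adjusted p = 0.0024). Foxp1 differed little, from 101 and 91.1 CPM to 127 and 126 CPM (log2 change 0.40, SE 0.12, adjusted p = 0.018). The call on Foxp1 was lost without HP (adjusted p = 0.06) and without SP (adjusted p = 0.21). Dlx1 stood at 34.2 and 27.7 CPM in the precursors and 38.6 and 39.9 CPM in dMSN and Dlx2 at 27.7 and 16.3 CPM in the precursors and 15.9 and 15.6 CPM in dMSN, and neither passed (adjusted p = 0.074 and adjusted p = 0.13).

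Receptors for the fast transmitters rose with few exceptions. Of 18 AMPA and NMDA receptor genes and partners tested, 17 were higher, 15 by at least 4-fold, and none was lower, with a median log2 change of 4.63. Grin1, the subunit that every NMDA receptor contains, stood at 0.834 and 0.855 CPM in the precursors and 676 and 586 CPM in dMSN (log2 change 9.54, SE 0.20, adjusted p = 3.5e-06). Grin2b went from 0.306 and 0.44 CPM to 16.4 and 16.3 CPM (log2 change 5.44, SE 0.26, adjusted p = 1.2e-05). Grin2a, which joins NMDA receptors later in life, stood at 0.167 (HP), 0.684 (SP), 2.11 (dMSN 1) and 6.43 CPM (dMSN 2). It was higher in dMSN 2 than in dMSN 1, and its log2 change of 3.29 (adjusted p = 0.0083) was 2.31 without dMSN 2, where the call was lost (adjusted p = 0.066), 3.9 without dMSN 1, 2.61 without HP and 4.63 without SP. Among the AMPA receptors, Gria1 went from 2.56 and 5.13 CPM to 324 and 288 CPM (log2 change 6.30, SE 0.35, adjusted p = 1.7e-05) and Gria3 went from 10.4 and 11.8 CPM to 91.6 and 141 CPM (log2 change 3.39, SE 0.24, adjusted p = 4.2e-05). Grin3b, at 0.89 and 0.757 CPM in the precursors and 0.481 and 0.157 CPM in dMSN, was the member that did not pass. Its log2 change of -1.36 was -2.36 without dMSN 1 and -0.75 without dMSN 2, and 1 gene of the list was called lower without SP, without dMSN 1 and with limma voom.

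Genes of the GABA synapse were mostly higher. Of 20 genes tested of 21 listed, 18 were higher, 1 was lower and 1 did not pass, with a median log2 change of 5.0. Gad1, which makes GABA, went from 4.7 and 8.23 CPM to 456 and 519.9 CPM (log2 change 6.23, SE 0.31, adjusted p = 1.3e-05), and its vesicle transporter Slc32a1 went from 3.14 and 5.5 CPM to 398 and 332 CPM (log2 change 6.39, SE 0.31, adjusted p = 1.2e-05). Gabrd, the subunit of extrasynaptic receptors, had 3 counts over both precursor libraries and 50079 in dMSN, a ratio of 4930 (95% counting interval 1690 to 23900). The chloride transporters moved in opposite directions. Slc12a5 (KCC2), which exports chloride and makes GABA inhibitory, went from 7.23 and 13.2 CPM to 392 and 437 CPM (log2 change 5.34, SE 0.32, adjusted p = 2.3e-05). Slc12a2 (NKCC1), which imports chloride, went from 90.7 and 85.6 CPM to 46.2 and 50.5 CPM (log2 change -0.86, SE 0.12, adjusted p = 0.00066), the only decrease of the list, and it did not pass a test against a 2-fold change (adjusted p = 0.83).

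Ion channels of the mature membrane were mostly higher as well. Of 33 tested, 27 were higher, 24 by at least 4-fold, none was lower and 6 did not pass, with a median log2 change of 3.72. Scn4b, an auxiliary sodium channel subunit, went from 0.918 and 0.928 CPM to 400.5 and 390.2 CPM (log2 change 8.74, SE 0.17, adjusted p = 3.5e-06). Kcnj4, an inward rectifier potassium channel of medium spiny neurons, went from 0.556 and 0.513 CPM to 244 and 256 CPM (log2 change 8.87, SE 0.17, adjusted p = 3.5e-06). Scn3a, the sodium channel typical of embryonic neurons, stood at 17.1 and 28.9 CPM in the precursors and 24.1 and 24.8 CPM in dMSN, the T-type calcium channel Cacna1g at 117 and 83.7 CPM in the precursors and 87.8 and 60.4 CPM in dMSN, and neither passed. The sides overlapped in Scn3a, and in Cacna1g the SP value lay between the dMSN values.

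Of 30 genes of synaptic vesicle release tested, 27 were higher, 23 by at least 4-fold, and 1 was lower, with a median log2 change of 4.16. Snap25, the neuronal membrane SNARE, went from 11.8 and 20.9 CPM to 2959 and 4378 CPM (log2 change 7.81, SE 0.43, adjusted p = 1.7e-05). The decrease was in Snap23, its counterpart in most other cells, from 62.7 and 59 CPM to 5.46 and 6.56 CPM (log2 change -3.34, SE 0.16, adjusted p = 1.1e-05). The clamp protein Cplx1 went from 3.67 and 3.52 CPM to 976 and 1010 CPM (log2 change 8.11, SE 0.18, adjusted p = 3.5e-06), and Syn2, which tethers vesicles, from 2.89 and 3.74 CPM to 399.5 and 434 CPM (log2 change 6.97, SE 0.20, adjusted p = 3.6e-06). The vesicular glutamate transporter Slc17a7, typical of cortical and not of striatal neurons, was also high, at 2.56 and 1.32 CPM in the precursors and 846 and 1356 CPM in dMSN (log2 change 9.16, SE 0.46, adjusted p = 1.3e-05). It was the higher in dMSN 2.

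Postsynaptic density genes were also mostly higher. Of 27 tested, 23 were higher, 15 of them by at least 4-fold, and 2 were lower, with a median log2 change of 2.33. Camk2b went from 2.31 and 2.91 CPM to 1002 and 967 CPM (log2 change 8.56, SE 0.21, adjusted p = 3.5e-06) and Camk2a went from 12.8 and 15.3 CPM to 1229 and 1249 CPM (log2 change 6.46, SE 0.19, adjusted p = 3.7e-06), both subunits of the calcium-activated kinase of spines. Nrgn rose by a log2 change of 11.73 (SE 0.36, adjusted p = 3.9e-06). The scaffold Dlg4 (PSD-95) went from 58.2 and 65 CPM to 819 and 776 CPM (log2 change 3.69, SE 0.15, adjusted p = 6.8e-06). The related scaffold Dlg1 stood at 117 and 97 CPM in the precursors and 91.1 and 115 CPM in dMSN. It did not pass, and its sides overlapped. Homer3 fell, from 77.8 and 69.8 CPM to 16.3 and 10.2 CPM (log2 change -2.48, SE 0.24, adjusted p = 0.00016).

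Of 26 genes of immature neurons tested, 11 (42.3%) were higher and 14 (53.8%) lower, against 41.6% and 37.4% of all genes. Of those lower, 10 fell by at least 4-fold, and the list had a median log2 change of -0.82. Sox4 and Sox11, transcription factors of newborn neurons, went from 145 and 148 CPM to 10.1 and 8.77 CPM (log2 change -3.96, SE 0.14, adjusted p = 4.8e-06) and from 121 and 126 CPM to 1.35 and 2.79 CPM (log2 change -5.90, adjusted p = 2.5e-05). The Sox11 change was -5.45 without dMSN 1 and -6.49 without dMSN 2. The surface protein Cd24a went from 345 and 412 CPM to 14.1 and 13.8 CPM (log2 change -4.77, SE 0.16, adjusted p = 4.6e-06). Dcx, a microtubule protein of migrating neurons, stood at 149.9 (HP), 369.6 (SP), 10.4 (dMSN 1) and 11.7 CPM (dMSN 2), with a log2 change of -4.56 (adjusted p = 0.00017), -5.1 without HP and -3.8 without SP.

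Other members of the list rose. Stmn3, a tubulin-binding protein, went from 34.7 and 65.3 CPM to 1562 and 1404 CPM (log2 change 4.89, SE 0.35, adjusted p = 4.2e-05), and Gap43, a growth cone and terminal protein, went from 64.3 and 99.8 CPM to 563 and 529 CPM (log2 change 2.73, SE 0.23, adjusted p = 9.1e-05). Among the tubulins, Tubb2a rose from 36.1 and 67.5 CPM to 747 and 682 CPM (log2 change 3.79, SE 0.32, adjusted p = 8.8e-05), while Tubb5 and Tubb2b fell from 2929 and 2839 CPM to 1157 and 1060 CPM (log2 change -1.38, SE 0.16, adjusted p = 0.00035) and from 460 and 744 CPM to 205 and 164 CPM (log2 change -1.71, SE 0.26, adjusted p = 0.0012). Tubulin genes are similar in sequence, so reads may have been split between them. The general neuron marker Tubb3 stood at 369.5 and 615 CPM in the precursors and 829.9 and 779 CPM in dMSN, and its call (log2 change 0.71, adjusted p = 0.039) was lost without HP (adjusted p = 0.17), without dMSN 1 (adjusted p = 0.15) and without dMSN 2 (adjusted p = 0.12). Its log2 change was 0.36 without HP.

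Of the 17 axon and neurofilament genes tested, 11 (64.7%) were higher, 1 was lower and 5 did not pass, against 41.6% higher of all genes. The median log2 change was 1.00. Nefh, the heavy neurofilament subunit that comes with axon thickening, stood at 0.528 and 1.1 CPM in the precursors and 181 and 121 CPM in dMSN, with a log2 change of 7.51 (adjusted p = 1.3e-05), 7.07 without HP and 8.12 without SP. Spnb4, the spectrin of the axon initial segment and nodes, went from 1.2 and 1.59 CPM to 163 and 139 CPM (log2 change 6.75, SE 0.20, adjusted p = 3.7e-06). The medium subunit Nefm stood at 143 and 344 CPM in the precursors and 325 and 326 CPM in dMSN and did not pass. In Nefm the SP value lay above both dMSN values and the HP value below them. SP was higher than HP in 17 of 17 genes of this list and in 24 of 26 immature neuron genes, against 9858 of all 19107 genes tested. The precursor side itself was thus uneven in these groups.

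Cell cycle genes were lower in dMSN without exception. All 60 listed were tested and called lower, 56 of them by at least 4-fold, with a median log2 change of -5.65. The summed level of the list was 12000 CPM in both precursor libraries and 485 and 513 CPM in dMSN 1 and dMSN 2. Mki67, the proliferation antigen, went from 733 and 793 CPM to 1.89 and 2.38 CPM (log2 change -8.48, SE 0.21, adjusted p = 3.5e-06), and Top2a, the topoisomerase of dividing cells, from 1008 and 1032 CPM to 2.35 and 2.35 CPM (log2 change -8.76, SE 0.18, adjusted p = 3.5e-06). Bub1, a spindle checkpoint kinase, went from 165 and 156 CPM to 0.158 and 0.0944 CPM (log2 change -10.29, SE 0.24, adjusted p = 3.5e-06). Its dMSN values correspond to 21 and 12 counts in the deeper libraries, so it was near the limit of detection.

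Within the cycle the size of the fall varied from gene to gene, and replication and mitotic genes overlapped in it. Of the replication genes, Cdc6 had a log2 change of -7.1 and Mcm10 of -7.06. Of the mitotic genes, Mad2l1 had a log2 change of -3.82 and Aurka of -4.72. The replication licensing genes Mcm2 to Mcm7 fell by 4.38 to 6.03 on the log2 scale, with Mcm3 going from 306 and 289 CPM to 4.51 and 4.63 CPM (log2 change -6.03, SE 0.14, adjusted p = 3.5e-06). The mitotic kinase Aurkb went from 108 and 107 CPM to 0.909 and 0.685 CPM (log2 change -7.07, SE 0.19, adjusted p = 3.6e-06). The smallest changes were in Ccne1, from 67.8 and 50.4 CPM to 26.4 and 27.7 CPM (log2 change -1.13, SE 0.17, adjusted p = 0.0012), E2f1, from 52.9 and 73.8 CPM to 16.5 and 23.7 CPM (log2 change -1.66, SE 0.24, adjusted p = 0.00097), Ccnd3, from 132 and 116 CPM to 37.3 and 32.3 CPM (log2 change -1.84, SE 0.14, adjusted p = 5.2e-05), and Pcna, from 309.9 and 305 CPM to 72.6 and 81.4 CPM (log2 change -2.0, SE 0.13, adjusted p = 2.8e-05). Pcna, the replication clamp, also serves DNA repair.

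The promoters of mitotic genes that fell together are shown because this group is known for shared elements, the CCAAT box and the cell cycle homology region (CHR, letters TTTGAA). The 120 bases before the RefSeq start sites (GRCm38.p6, all on the minus strand) are given for Cdk1 (chr10:69352913-69353032), the kinase that drives mitosis, its partner Ccnb2 (chr9:70421555-70421674) and Bub1 (chr2:127831860-127831979), with CCAAT and TTTGAA, or their reverse complements, in capitals.
Cdk1: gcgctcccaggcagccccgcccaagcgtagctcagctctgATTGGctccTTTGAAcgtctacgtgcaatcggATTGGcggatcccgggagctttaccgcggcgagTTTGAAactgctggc
Ccnb2: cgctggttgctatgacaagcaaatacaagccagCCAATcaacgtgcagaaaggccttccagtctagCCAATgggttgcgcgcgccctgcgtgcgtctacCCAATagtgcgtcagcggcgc
Bub1: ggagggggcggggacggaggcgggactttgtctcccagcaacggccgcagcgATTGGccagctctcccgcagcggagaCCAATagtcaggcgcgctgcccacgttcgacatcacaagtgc
In Cdk1 the CCAAT matches begin 80 and 48 bases upstream, 32 apart, and TTTGAA matches begin 71 and 15 bases upstream. In Ccnb2 there are 3 CCAAT matches in steps of 33 bases, and in Bub1 there are 2 that lie 26 apart. Neither Ccnb2 nor Bub1 holds TTTGAA in the 120 bases shown. Cdk1 stood at 153 and 137 CPM in the precursors and 1.03 and 1.47 CPM in dMSN (log2 change -6.86, SE 0.23, adjusted p = 4.6e-06), and Ccnb2 at 95.4 and 96.4 CPM in the precursors and 0.894 and 1.19 CPM in dMSN (log2 change -6.52, SE 0.19, adjusted p = 3.7e-06). No match of 1 motif overlapped another. Over the 300-base windows and both strands, CCAAT lay in 35 of 47 cell cycle promoters (74.5%) and in 41.1% of all promoters, and more than 1 match in 21 of 47 (44.7%) against 13.3%. The CCAAT share was lower in most other lists but as high in some. It was 75.0% of 16 immature neuron, 76.9% of 13 neurogenic progenitor and 81.8% of 11 eye and pigment cell promoters. TTTGAA lay in 16 of 47 (34.0%) against 20.2%. Only 47 of the 60 genes had a promoter in the table, under 80%, so these shares describe those 47 and are void as a check of the list.

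Of 18 cyclin-dependent kinase inhibitors and related genes tested of 19 listed, 6 (33.3%) were higher, 9 (50%) lower and 3 did not pass, against 41.6% and 37.4% higher and lower of all genes, with a median log2 change of -0.58. Cdkn1c (p57) and Cdkn1b (p27), inhibitors that act as progenitors leave the cycle, fell from 248 and 344 CPM to 17.2 and 18.5 CPM (log2 change -4.05, SE 0.20, adjusted p = 1.3e-05) and from 81.9 and 85.7 CPM to 21.3 and 29.97 CPM (log2 change -1.71, SE 0.18, adjusted p = 0.00025). Cdkn2d (p19) rose from 1.08 and 1 CPM to 6.97 and 8.73 CPM (log2 change 2.91, SE 0.26, adjusted p = 0.00011). Cdk5, a kinase of postmitotic neurons that does not drive division, rose from 31.3 and 32.2 CPM to 231 and 207 CPM (log2 change 2.79, SE 0.13, adjusted p = 9.4e-06), with its activator Cdk5r1 from 29.8 and 49.8 CPM to 199 and 231 CPM (log2 change 2.43, SE 0.26, adjusted p = 0.00024). The pocket protein Rbl1 (p107) fell from 74.7 and 80.2 CPM to 0.842 and 0.724 CPM (log2 change -6.62, SE 0.17, adjusted p = 3.5e-06).

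Radial glia and stem cell genes were mostly lower. Of 35 tested of 36 listed, 29 were lower, 20 by at least 4-fold, 3 were higher and 3 did not pass, with a median log2 change of -2.19. Nes and Vim, the intermediate filaments of radial glia, went from 750.3 and 1312 CPM to 4.84 and 4.99 CPM (log2 change -7.71, SE 0.36, adjusted p = 1e-05) and from 970.5 and 1232 CPM to 49.6 and 44.9 CPM (log2 change -4.54, SE 0.19, adjusted p = 7.9e-06). Notch1, the receptor that holds progenitors back from differentiation, went from 169 and 255 CPM to 4.85 and 6.02 CPM (log2 change -5.29, SE 0.26, adjusted p = 1.3e-05), and its ligand Dll1 from 68.3 and 111 CPM to 6.21 and 6.35 CPM (log2 change -3.84, SE 0.26, adjusted p = 3.6e-05). Tead2, a partner of Yap, went from 369.8 and 337 CPM to 2.65 and 2.86 CPM (log2 change -7.00, SE 0.16, adjusted p = 3.5e-06). Sox2, which is kept in adult glia, fell from 151 and 178 CPM to 59.6 and 66.3 CPM (log2 change -1.38, SE 0.14, adjusted p = 0.00018). The glutamate transporter Slc1a3, which astrocytes also use, rose from 38 and 37 CPM to 266 and 323 CPM (log2 change 2.97, SE 0.15, adjusted p = 1.3e-05). Hes5 at 31.4 and 55.2 CPM in the precursors and 32.2 and 25.8 CPM in dMSN, Fgfr3 at 68.2 and 122 CPM in the precursors and 64 and 64.3 CPM in dMSN and Id4 at 97.9 and 91.4 CPM in the precursors and 84.3 and 94 CPM in dMSN did not pass. Other members known in both radial glia and astrocytes fell, among them Sox9 from 108 and 102 CPM to 38.2 and 35.1 CPM (log2 change -1.52, SE 0.12, adjusted p = 5.7e-05). The astrocyte list rose on the same side, and its part in these values was not tested.

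Of 15 neurogenic progenitor genes tested, 10 (66.7%) were lower, 4 (26.7%) higher and 1 did not pass, against 37.4% lower and 41.6% higher of all genes. Neurog2, a proneural factor, went from 31.8 and 48.7 CPM to 0.556 and 0.456 CPM (log2 change -6.31, SE 0.30, adjusted p = 1.1e-05). Those that rose included Neurod2, from 0.445 and 0.733 CPM to 71.3 and 97.6 CPM (log2 change 7.14, SE 0.30, adjusted p = 7.6e-06), and Neurod6, from 0.473 and 0.709 CPM to 45.6 and 85.6 CPM (log2 change 6.78, SE 0.43, adjusted p = 2.8e-05), both also factors of cortical glutamatergic neurons. Both were higher in dMSN 2 than in dMSN 1.

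The Lin28 group, which holds RNA-binding proteins, chromatin proteins and growth genes of the early embryo, fell strongly. Of 29 tested of 31 listed, 25 were lower, 22 by at least 4-fold, 2 were higher and 2 did not pass, with a median log2 change of -3.48. Lin28a had a log2 change of -10.12 (SE 0.35, adjusted p = 4.9e-06), and Lin28b, its paralog, went from 86.2 and 84.6 CPM to 3.07 and 2.88 CPM (log2 change -4.84, SE 0.14, adjusted p = 3.6e-06). In dMSN 1 and dMSN 2 Lin28a lay just above the 0.0225 and 0.0236 CPM that a count of 0 allowed, so the size of its change is uncertain. The mRNA-binding proteins Igf2bp2 and Igf2bp3 went from 304 and 284 CPM to 1.2 and 1.52 CPM (log2 change -7.75, SE 0.19, adjusted p = 3.5e-06) and from 172 and 177 CPM to 0.21 and 0.378 CPM (log2 change -9.21, SE 0.28, adjusted p = 3.7e-06). Igf2bp1 stood at 431 (HP), 429 (SP), 0 (dMSN 1) and 0.0315 CPM (dMSN 2), which in dMSN was 0 and 4 counts. Hmga2, a chromatin protein of fetal stem cells and a let-7 target, stood at 646 (HP), 367 (SP), 0.391 (dMSN 1) and 0.22 CPM (dMSN 2) (log2 change -10.68, SE 0.47, adjusted p = 9e-06). The 2 members called higher, Dnmt3l and Tdgf1, stayed under 1 CPM in all 4 libraries. Neither was called without dMSN 1, where Tdgf1 had an adjusted p of 0.053 and Dnmt3l was too low to be tested. The log2 change of Tdgf1, 2.49, was 3.72 without HP and 1.75 without SP, and neither gene passed a filter at 1 CPM.

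Imprinted growth genes in this group fell too. H19, a noncoding RNA made from the maternal copy, stood at 1066 (HP), 946 (SP), 0.0977 (dMSN 1) and 0.268 CPM (dMSN 2), with a log2 change of -12.43 (adjusted p = 5e-06), -11.85 without dMSN 1 and -13.28 without dMSN 2. Igf2, its neighbour made from the paternal copy, went from 653 and 657 CPM to 107 and 98 CPM (log2 change -2.68, SE 0.13, adjusted p = 1.3e-05), and Peg10 went from 591 and 608 CPM to 40.2 and 32.8 CPM (log2 change -4.04, SE 0.17, adjusted p = 7.3e-06). H19 was nearly absent in dMSN while Igf2 was not. Igf2 is also made by meninges and vessels. Of 18 meningeal and fibroblast genes 13 were lower and 3 higher, and of 21 vascular genes 9 were lower and 9 higher. The shares of all genes were 37.4% lower and 41.6% higher. The part of these cells in the Igf2 values was not tested.

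Mir17hg, the host transcript of the miR-17 to miR-92 cluster, was named after its values were seen, because the cluster is known for its role in progenitor growth. The host stood at 32.1 (HP), 30.2 (SP), 0.15 (dMSN 1) and 0.142 CPM (dMSN 2) (log2 change -7.72, SE 0.22, adjusted p = 3.6e-06). The sides did not overlap, as in 90.9% of all genes tested. Counts are of the host RNA, and mature microRNAs were not measured. The mature sequences from RefSeq (GRCm38.p6, plus strand, from chr14:115043684-115043706 for miR-17-5p to chr14:115044476-115044496 for miR-92a-3p), with the seed (bases 2 to 8) in capitals, show what the transcript carries: 6 microRNAs with 4 different seeds.
mmu-miR-17-5p: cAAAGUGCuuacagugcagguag
mmu-miR-20a-5p: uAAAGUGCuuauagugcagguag
mmu-miR-18a-5p: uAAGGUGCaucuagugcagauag
mmu-miR-19a-3p: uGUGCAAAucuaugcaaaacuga
mmu-miR-19b-3p: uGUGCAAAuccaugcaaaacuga
mmu-miR-92a-3p: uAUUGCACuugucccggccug
The seed is shared by miR-17-5p and miR-20a-5p, and another one by miR-19a-3p and miR-19b-3p.

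Genes that write and read DNA methylation are of interest because the series also profiled methylation. Of 24 tested of 25 listed, 15 (62.5%) were lower, 10 by at least 4-fold, 8 (33.3%) were higher and 1 did not pass. Of all genes 37.4% were lower and 41.6% higher. The list had a median log2 change of -1.24. The 8 higher became 5 without dMSN 1 and 4 with dMSN thinned to precursor depth. The pair that copies methylation at replication fell. Uhrf1, which brings the maintenance enzyme to new DNA, went from 414 and 385 CPM to 2.02 and 1.88 CPM (log2 change -7.68, SE 0.16, adjusted p = 3.5e-06). Dnmt1, the maintenance enzyme, went from 470.4 and 429 CPM to 47.7 and 49.4 CPM (log2 change -3.21, SE 0.13, adjusted p = 7.5e-06). Some methylation samples of the series are titled by Dnmt3a and by Cre, negative or positive. The de novo enzyme Dnmt3a went from 262 and 230.5 CPM to 38 and 33.8 CPM (log2 change -2.78, SE 0.14, adjusted p = 1.3e-05), and Dnmt3b went from 37.9 and 29.9 CPM to 0.376 and 0.252 CPM (log2 change -6.75, SE 0.29, adjusted p = 7.9e-06). Dnmt3a remained well detected in both dMSN libraries, while Dnmt3b was under 1 CPM.

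The demethylation enzymes Tet1, Tet2 and Tet3 all fell, Tet1 from 50.2 and 53.1 CPM to 3.92 and 3.75 CPM (log2 change -3.75, SE 0.14, adjusted p = 6.2e-06), Tet2 from 34.1 and 45.9 CPM to 11 and 11.8 CPM (log2 change -1.81, SE 0.19, adjusted p = 0.00021) and Tet3 from 167 and 184 CPM to 15.8 and 17.5 CPM (log2 change -3.40, SE 0.13, adjusted p = 6.4e-06). Zbtb4, a zinc finger protein that binds methylated DNA, rose from 6.14 and 7.75 CPM to 104 and 83 CPM (log2 change 3.75, SE 0.19, adjusted p = 1.4e-05). Gadd45b, an activity-induced gene linked to demethylation, rose from 3.36 and 4.13 CPM to 33.4 and 39 CPM (log2 change 3.27, SE 0.19, adjusted p = 2.1e-05).

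In the Polycomb group, whose complexes keep developmental genes silent, 18 of 29 tested (62.1%) were lower, 9 (31%) were higher and 2 did not pass. Of all genes 37.4% were lower and 41.6% higher. The group had a median log2 change of -1.26. Ezh2, the histone H3 lysine 27 methyltransferase of dividing cells, fell from 288 and 290.1 CPM to 3.9 and 4.26 CPM (log2 change -6.15, SE 0.14, adjusted p = 3.5e-06), and its relative Ezh1 rose from 15.4 and 14.3 CPM to 63.6 and 59.2 CPM (log2 change 2.05, SE 0.13, adjusted p = 2.7e-05). The chromodomain subunits went the same 2 ways. Cbx2 fell from 204 and 160.2 CPM to 2.56 and 2.42 CPM (log2 change -6.19, SE 0.19, adjusted p = 3.7e-06), while Cbx7 rose from 6.67 and 6.18 CPM to 42.8 and 44 CPM (log2 change 2.76, SE 0.14, adjusted p = 1.4e-05).

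Of 24 subunits of the BAF chromatin remodeller tested, 6 (25%) were higher, 12 (50%) lower and 6 did not pass, against 41.6% and 37.4% higher and lower of all genes. Actl6a, the actin-related subunit of progenitors, fell from 141 and 131 CPM to 9.69 and 11.8 CPM (log2 change -3.67, SE 0.15, adjusted p = 7.4e-06). Its neuronal counterpart Actl6b (BAF53b) stood at 3.73 and 11.1 CPM in the precursors and 179 and 162 CPM in dMSN, with a log2 change of 4.51 (adjusted p = 0.00026), 3.91 without HP and 5.48 without SP. The ATPase Smarca4 fell from 558 and 573 CPM to 197 and 195 CPM (log2 change -1.53, SE 0.12, adjusted p = 7.4e-05) and the alternative ATPase Smarca2 rose from 42.9 and 35.3 CPM to 213 and 280.4 CPM (log2 change 2.66, SE 0.19, adjusted p = 4.4e-05). Smarcc1 fell from 512 and 477 CPM to 53 and 59.7 CPM (log2 change -3.13, SE 0.14, adjusted p = 9.3e-06), and Smarcc2 stood at 229 and 266 CPM in the precursors and 283 and 254 CPM in dMSN and did not pass.

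**Figure D3:**
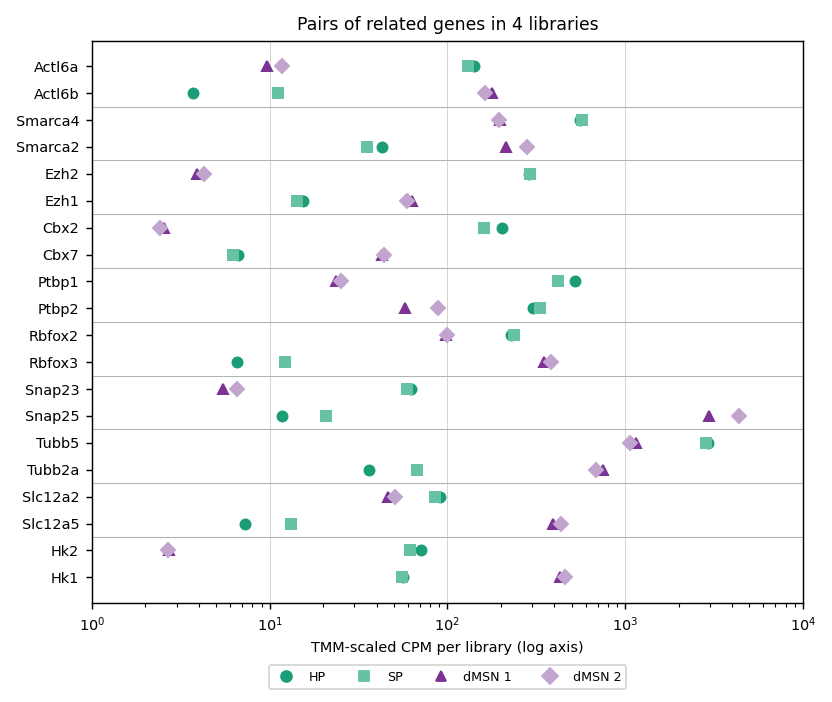
Pairs of related genes are set between grey lines, with the TMM-scaled CPM of each gene in HP, SP, dMSN 1 and dMSN 2 on a log axis. In 9 of the 10 pairs the upper gene is lower and the lower gene higher in both dMSN libraries, and in the pair Ptbp1 and Ptbp2 both genes are lower.

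Of 25 genes of neuronal repression and splicing tested, 10 (40%) were higher and 13 (52%) lower, against 41.6% and 37.4% of all genes, with a median log2 change of -0.68. Rest, which silences neuronal genes in other cells, went from 88.6 and 68.8 CPM to 2.92 and 3.13 CPM (log2 change -4.70, SE 0.19, adjusted p = 6.5e-06), and its partner Rcor2 from 202 and 213 CPM to 19.4 and 20.2 CPM (log2 change -3.39, SE 0.12, adjusted p = 5.2e-06). Ptbp1, which blocks neuronal exons, went from 521 and 419.7 CPM to 23.5 and 25.2 CPM (log2 change -4.27, SE 0.17, adjusted p = 6.7e-06), and Ptbp2, which takes its place in young neurons, from 302 and 330.1 CPM to 57.6 and 88.6 CPM (log2 change -2.11, SE 0.22, adjusted p = 0.00023). The splicing factor Rbfox3 (NeuN) rose from 6.53 and 12.2 CPM to 348 and 383 CPM (log2 change 5.28, SE 0.32, adjusted p = 2.5e-05), and Celf5 rose from 12.1 and 21.8 CPM to 140 and 147 CPM (log2 change 3.08, SE 0.28, adjusted p = 0.00012). The pairs in the plot of related genes were picked from the lists after their values were seen.

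The mitochondrial respiratory chain was higher in dMSN. All 34 nuclear genes of oxidative phosphorylation tested were higher, 17 of them by at least 4-fold, with a median log2 change of 2.00. Cox4i1, a core subunit of cytochrome oxidase, went from 163 and 165 CPM to 1077 and 930.2 CPM (log2 change 2.61, SE 0.15, adjusted p = 2e-05), and Cox5b from 44 and 41 CPM to 612 and 560.1 CPM (log2 change 3.79, SE 0.14, adjusted p = 5.9e-06). Atp5a1, of the ATP synthase, had the smallest change, from 895 and 842 CPM to 1241 and 1329 CPM (log2 change 0.56, SE 0.14, adjusted p = 0.012), and its call was lost without SP (adjusted p = 0.063). Cox6a2, an isoform of muscle and some neurons, had 1 count over the precursor libraries and 5384 in dMSN, a ratio of 1590 (95% counting interval 285 to 62900). The share of counts in mitochondrially encoded genes was 1.79% in HP, 1.91% in SP, 3.52% in dMSN 1 and 2.77% in dMSN 2.

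In glycolysis 16 of 21 genes tested were higher, 3 lower and 2 did not pass. Hexokinase isoforms moved in opposite directions, with Hk1 rising from 56.4 and 55.3 CPM to 428 and 457 CPM (log2 change 2.99, SE 0.13, adjusted p = 8.2e-06) and Hk2 falling from 70.7 and 61.7 CPM to 2.7 and 2.67 CPM (log2 change -4.62, SE 0.15, adjusted p = 4.6e-06). The neuronal enolase Eno2 rose from 5.12 and 6.08 CPM to 1710 and 1616 CPM (log2 change 8.21, SE 0.21, adjusted p = 3.5e-06). Aldoc, an aldolase of astrocytes, rose from 1.86 and 1.81 CPM to 1671 and 1516 CPM (log2 change 9.76, SE 0.21, adjusted p = 3.5e-06). Gapdh, often used as a reference gene, was itself higher, from 749 and 650 CPM to 3689 and 3151 CPM (log2 change 2.29, SE 0.18, adjusted p = 7.2e-05). The lactate importer Slc16a1 fell from 86.7 and 69 CPM to 25.2 and 28.1 CPM (log2 change -1.55, SE 0.15, adjusted p = 0.00018), and Ldha stood at 779 and 668 CPM in the precursors and 502 and 609 CPM in dMSN and did not pass.

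Ribosomal protein genes moved little. Of 32 tested, 16 (50%) were higher and 4 (12.5%) lower, against 41.6% and 37.4% of all genes. Another 12 did not pass, none of the list reached a 4-fold change, and the median log2 change was 0.34. Among 16 genes used as references in other work, all were called, against 79% of all genes, 10 (62.5%) higher and 6 (37.5%) lower. Their log2 changes ran from -2.47 in Polr2a, the RNA polymerase II subunit, to 3.04 in Hprt. Polr2a went from 463 and 465 CPM to 87.1 and 80.5 CPM (log2 change -2.47, SE 0.13, adjusted p = 1.4e-05). The call on Rpl13a, at 576 and 565 CPM in the precursors and 960.2 and 704 CPM in dMSN, was lost under relative log expression scaling (adjusted p = 0.051) and with either precursor library or dMSN 1 left out (adjusted p = 0.052 to 0.064). The call on Gusb, at 35.4 and 31.7 CPM in the precursors and 26 and 20.6 CPM in dMSN, was lost without HP (adjusted p = 0.066) and without dMSN 2 (adjusted p = 0.1). The signs of the listed genes' called changes did not turn under any scaling tried.

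**Figure D4:**
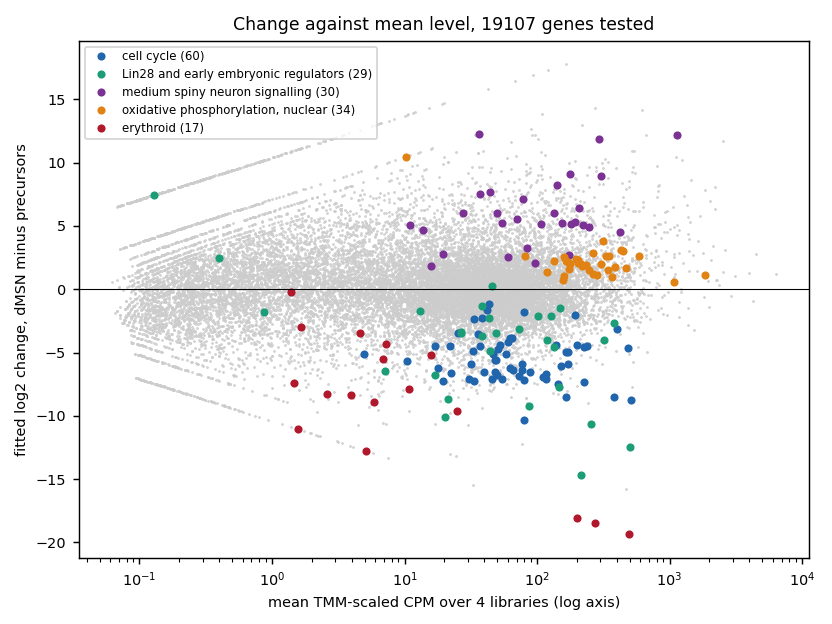
Each grey point is 1 of 19107 genes tested, with its mean TMM-scaled CPM over the 4 libraries on a log axis and its fitted log2 change, dMSN minus precursors; colours mark members of 5 lists. Cell cycle genes lie below 0 and signalling and oxidative phosphorylation genes above it; points on the slanting lines have counts of 0 or close to 0 on 1 side, where the fitted value is no measure of the fold.

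Immediate early genes, which neurons switch on with activity, were higher in dMSN. Of 19 tested, 16 were higher, 13 by at least 4-fold, and 2 were lower, with a median log2 change of 4.70. Egr1 went from 4.53 and 4.67 CPM to 284 and 474 CPM (log2 change 6.36, SE 0.31, adjusted p = 1.2e-05), Fos from 1.36 and 1.56 CPM to 52 and 87.5 CPM (log2 change 5.57, SE 0.32, adjusted p = 2e-05) and Arc, which remodels AMPA receptors at spines, from 1.81 and 2.1 CPM to 254 and 369.7 CPM (log2 change 7.31, SE 0.27, adjusted p = 5.6e-06). Egr4 had no count in HP or SP and stood at 117 and 155 CPM in dMSN 1 and dMSN 2, at least 1400-fold higher, taking the lower dMSN library against 3 counts in the shallower precursor library. Jun stood at 81.4 and 63.5 CPM in the precursors and 58.4 and 64.1 CPM in dMSN and did not pass, with the sides overlapping. Of the 19 genes 18 were higher in dMSN 2 than in dMSN 1, by a median log2 difference of 0.54. Among all 19107 genes tested, 9732 were higher in dMSN 2.

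Genes of cell types other than neurons moved with the same comparison. Of 24 myelin and oligodendrocyte genes tested, 22 were higher, 19 by at least 4-fold, with a median log2 change of 5.92. Mog, a myelin protein made by mature oligodendrocytes, went from 0.639 and 0.635 CPM to 163 and 128 CPM (log2 change 7.83, SE 0.22, adjusted p = 3.6e-06). Mbp rose by a log2 change of 6.62 (SE 0.24, adjusted p = 5.2e-06). Opalin, a myelin protein, had no count in HP or SP and was at least 893-fold higher. Pdgfra, of oligodendrocyte precursors and of mesenchyme, fell from 149.7 and 103 CPM to 24.6 and 24.7 CPM (log2 change -2.36, SE 0.20, adjusted p = 8.6e-05).

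Of 20 astrocyte genes tested, 18 were higher by at least 4-fold and none was lower. Gfap went from 0.25 and 0.244 CPM to 185 and 143 CPM (log2 change 9.37, SE 0.25, adjusted p = 3.5e-06), S100b from 0.111 and 0.122 CPM to 226 and 203 CPM (log2 change 10.82, SE 0.21, adjusted p = 3.5e-06) and the lipid carrier Apoe from 55.7 and 52.2 CPM to 4911 and 3789 CPM (log2 change 6.33, SE 0.24, adjusted p = 5.9e-06). The gap junction protein Gja1, also made by radial glia, stood at 243 and 162 CPM in the precursors and 139.9 and 146 CPM in dMSN and did not pass. Of 17 microglial genes, 16 were higher by at least 4-fold, with C1qa, a complement component, going from 3.62 and 3.57 CPM to 137 and 116 CPM (log2 change 5.14, SE 0.16, adjusted p = 3.8e-06). The part of these cells in the neuronal gene changes was not tested.

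Of 21 vascular genes tested, 9 were higher and 9 lower (42.9% each), close to the 41.6% and 37.4% of all genes. Kdr, the growth factor receptor of sprouting endothelium, fell from 79.4 and 82.7 CPM to 3.03 and 4.04 CPM (log2 change -4.52, SE 0.19, adjusted p = 7.6e-06), and Pecam1 fell from 37.9 and 37.9 CPM to 6.04 and 6.11 CPM (log2 change -2.64, SE 0.14, adjusted p = 1.6e-05). The barrier genes Cldn5 and Ly6c1 rose, Cldn5 from 15.5 and 16.4 CPM to 29 and 26 CPM (log2 change 0.79, SE 0.14, adjusted p = 0.0029) and Ly6c1 from 0.111 and 0.195 CPM to 25.8 and 29.5 CPM (log2 change 7.46, SE 0.29, adjusted p = 6.3e-06).

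Blood and connective tissue transcripts were a feature of the precursor side. Of 17 erythroid genes tested of 18 listed, 16 were lower by at least 4-fold, and the median log2 change was -8.27, or -7.91 with genes at 0 set to their bound. The embryonic globins Hbb-y, Hba-x and Hbb-bh1 had no count in dMSN and stood at 967 and 1001 CPM, 538 and 557 CPM, and 384 and 411 CPM in HP and SP. They were at least 41000-fold, 22800-fold and 16200-fold lower. The adult globins Hba-a1 and Hba-a2, and Hbb-b1 and Hbb-b2, are near-identical copies, so their separate counts are uncertain. Of 18 meningeal and fibroblast genes, 13 were lower and 3 higher, with Col3a1, a fibrillar collagen, going from 764 and 768 CPM to 2.16 and 1.86 CPM (log2 change -8.58, SE 0.19, adjusted p = 3.5e-06).

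Choroid plexus and ependymal genes were mostly higher in dMSN, 14 higher and 1 lower of 16 tested, with a median log2 change of 3.28. Ttr, the thyroid hormone carrier that choroid plexus makes in large amounts, stood at 0.5 (HP), 32.7 (SP), 4938 (dMSN 1) and 3914 CPM (dMSN 2). It was among the genes that differed most between HP and SP, and its log2 change of 8.05 (adjusted p = 0.0049) was 7.05 without HP and 13.07 without SP. The decrease was in Otx2, a homeobox gene of choroid plexus and of the embryonic forebrain and midbrain, from 99.6 and 109 CPM to 7.49 and 5.96 CPM (log2 change -3.96, SE 0.17, adjusted p = 7.6e-06).

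Interneuron and cholinergic genes were higher in 12 of 15 tested of 17 listed, lower in 1 and not passing in 2. Pvalb, of fast-spiking interneurons, had 3 counts over the precursor libraries and 48158 in dMSN, a ratio of 4740 (95% counting interval 1620 to 23000). Lhx6, a factor of interneurons born in the medial ganglionic eminence, stood at 22.6 (HP), 5.03 (SP), 23.5 (dMSN 1) and 24.2 CPM (dMSN 2) and did not pass, HP lying close to dMSN and SP below. Nkx2-1, which acts upstream of it, fell from 25.8 and 36 CPM to 9.53 and 7.37 CPM (log2 change -1.87, SE 0.23, adjusted p = 0.00047). Among 23 genes of cortical and hippocampal glutamatergic neurons, 15 (65.2%) were higher, 2 were lower and 6 did not pass, against 41.6% higher of all genes. The median log2 change was 1.43. Wfs1, an endoplasmic reticulum protein also abundant in ventral striatum, rose from 13.6 and 14.2 CPM to 166 and 178 CPM (log2 change 3.63, SE 0.12, adjusted p = 4.9e-06).

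Genes of tissue outside the brain were low on both sides with few exceptions. Of 15 eye and pigment cell genes tested of 17 listed, 5 (33.3%) were higher, 7 (46.7%) lower and 3 did not pass. The shares of all genes were 41.6% and 37.4%. In 12 of the 17 the level was higher in HP than in SP, as it was in 9219 of the 19107 genes tested. Pmel, a melanosome protein, stood at 12.8 (HP), 1.69 (SP), 1.17 (dMSN 1) and 1.01 CPM (dMSN 2), HP being the library that stood apart. Cryab, a chaperone of lens that glia also make, rose from 1.72 and 0.904 CPM to 358 and 279 CPM (log2 change 7.94, SE 0.34, adjusted p = 7.9e-06). Of 17 skeletal muscle and epithelial genes tested of 21 listed, 2 (11.8%) were higher, 8 (47.1%) lower and 7 did not pass, against the same shares of all genes. Epcam, an epithelial adhesion protein, fell from 27.6 and 13.5 CPM to 0.316 and 0.244 CPM (log2 change -6.19, SE 0.45, adjusted p = 4.8e-05), with a log2 change of -5.62 without HP and -6.65 without SP. The part of such cells in the other values of the precursor libraries was not tested.

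Genes known as markers of other brain regions differed between the libraries of 1 side. Of 19 midbrain, hindbrain and spinal cord genes tested of 27 listed, 18 were lower in dMSN, with a median log2 change of -6.64, or -6.48 with genes at 0 set to their bound. In 25 of the 27 SP was higher than HP, against 9858 of the 19107 genes tested. Atoh1, a factor of the rhombic lip, stood at 0.0556 and 11.7 CPM in the HP and SP libraries and had no count in dMSN, and Hoxa2, of the hindbrain, at 0.0556 and 6.18 CPM. Both were too low to be tested. Msx3, a dorsal neural tube gene, stood at 0.528 (HP), 37.4 (SP), 0.158 (dMSN 1) and 0.165 CPM (dMSN 2), and its log2 change of -6.87 (adjusted p = 0.013) was -7.88 without HP and -1.74 without SP. The call on Msx3 was lost without SP (adjusted p = 0.053), without dMSN 1 (adjusted p = 0.14) and without dMSN 2 (adjusted p = 0.13). Pax7, of the dorsal midbrain and cord, was even in HP and SP, at 41.1 and 47.3 CPM, with 1 count in dMSN 1 and 0 in dMSN 2. Summed over the 27 genes, the level was 264 and 513 CPM in the precursors and 29.7 and 11.9 CPM in dMSN. HP thus held such transcripts too, at a lower sum than SP. The part of such tissue in the other values of HP and of SP was not tested.

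The dMSN libraries differed from each other in genes of neighbouring regions, from lists drawn up with these data in view. Among all 19107 genes tested, 9352 were higher in dMSN 1 and 9732 in dMSN 2. The summed level of 10 hypothalamic neuropeptide genes was 844 CPM in dMSN 1 and 335 CPM in dMSN 2, and 9 of 10 were higher in dMSN 1. Oxt, the oxytocin gene, had no count in HP or SP and stood at 282 and 91.2 CPM, and Avp, the vasopressin gene, stood at 0 (HP), 0.0244 (SP), 309.7 (dMSN 1) and 124 CPM (dMSN 2). The 9 thalamic genes summed to 583 and 268 CPM, and all 9 were higher in dMSN 1. The 10 cortical genes summed to 1260 and 2070 CPM, and all 10 were higher in dMSN 2. The 30 signalling genes of medium spiny neurons summed to 9330 CPM in dMSN 1 and 9400 CPM in dMSN 2, and the 10 peptide genes to 3450 and 3750 CPM, against 221 and 281 CPM and 23.8 and 26.7 CPM in HP and SP. The striatal sums were thus nearly even between the dMSN libraries, while those of the other lists, chosen with the data in view, were not. Lists not tied to a region were uneven too, with 18 of 19 immediate early and 23 of 30 vesicle release genes higher in dMSN 2. In the cortical sums Slc17a7 alone gave 846 and 1356 CPM. The cortical list also holds Mef2c, named above among the striatal lineage factors.

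The largest changes of all, among genes averaging 5 CPM or more and ranked by the smallest of the 4 ratios of a dMSN to a precursor library, mixed these sources. Among the 12 largest increases, Ppp1r1b belongs to medium spiny neurons, Oxt and Avp to hypothalamus and Opalin to myelin. Gpr37l1, an astrocyte receptor, and Ntsr2, a neurotensin receptor of astrocytes, had no count in HP or SP and were at least 3630-fold and 2660-fold higher. Ptgds, the prostaglandin D synthase of meninges and oligodendrocytes, went from 0.0556 and 0.0733 CPM to 1335 and 1133 CPM (log2 change 14.18, adjusted p = 3.5e-06). The precursor values were 2 and 3 counts. Rasgrf1, an imprinted exchange factor of neurons, stood at 0.0278 (HP), 0.0733 (SP), 456 (dMSN 1) and 423 CPM (dMSN 2). Rprml had 2 counts over the precursor libraries and 47066 in dMSN, a ratio of 6960 (95% counting interval 1930 to 57400). Other increases were Egr4 and a feature named mmu-mir-2134-4, which had 2 counts in the precursor libraries and stood higher in dMSN 2 than in dMSN 1, at 269 and 827 CPM.

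The 12 largest decreases were the 3 embryonic globins, Xist, Igf2bp1, H19, Hmga2, Bub1, the neural tube factors Pax7, Pax3 and Dbx1, and Fndc3c1. Fndc3c1 stood at 158 (HP), 150.2 (SP), 0.0451 (dMSN 1) and 0.0157 CPM (dMSN 2), the dMSN values being 6 and 2 counts. Dbx1, of the interneuron progenitors of cord and forebrain border, stood at 24.6 and 108 CPM in the HP and SP libraries with no count in dMSN, at least 1040-fold lower. Pax3 stood at 34.2 and 64 CPM with 1 count in dMSN.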

How the data were processed

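Polyadenylated RNA was measured in 6 libraries, of which 2 dMSN, 1 HP and 1 SP are used here. The values are counts of reads per gene symbol, deposited by the authors as 1 table per library. The submitters' processing notes name, without roles, HTSeq, edgeR, TopHat, TopHat2 2.0.2, Bismark, methylKit and Bowtie 1.0.0, with NCBIM37 and mm9 as builds. The strand setting is not given in the sources used here. The 5 summary lines that name no gene were dropped from library sizes and tests; beside the assigned counts, 5.34 to 9.81% of reads lay in no feature, 1.38 to 2.01% were ambiguous and 17.3 to 27.3% did not align uniquely.

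HP and SP formed 1 side. Genes were filtered with filterByExpr, scaled by TMM and tested with edgeR 4.0.16 (glmQLFit and glmQLFTest, R 4.3.3) at a Benjamini-Hochberg adjusted p of 0.05 over 19107 genes. SE is the absolute fitted log2 change divided by the square root of the F statistic. It can understate the error where a side had few counts, as for Ptgds with 2 and 3 counts in HP and SP. The code was tested on simulated data. CPM is not divided by gene length, so levels are compared between libraries and not between genes.

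The gene lists (37 lists, 873 genes) and the choice of libraries were made with earlier results of these data known. Named are list members by role, the 12 largest increases and decreases (mean of at least 5 CPM, the same direction in all 4 pairs of libraries, ranked by the smallest pair ratio with a prior count of 2), and up to 6 genes that differ most between SP and HP. Lists of hypothalamic, thalamic and cortical genes were drawn up with these data in view. Alternatives were RLE and upper quartile scaling, no filter and a filter at 1 CPM, DESeq2 1.42.0, limma 3.58.1 (voom), robust moderation, all 6 libraries in the fit, dMSN thinned to precursor depth, a test against a 2-fold change, and leaving out each library. The methylation libraries and the young neuron libraries enter no comparison here, the latter only the fit of all 6. Of 34620 symbols 29179 matched a current symbol. Intervals and floors cover counting error only. Some genes are not reported here.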

Additional observations from a re-analysis of the deposited data

How the results depend on the processing

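The number of genes called, 15088, was 13365 to 14009 when 1 library was left out, with 7033 to 7506 higher and 6332 to 6581 lower. It was 14447 with DESeq2, 15150 with limma voom, 15525 without a filter, 12797 with a filter at 1 CPM, 13536 with all 6 libraries in the fit, 14047 with dMSN thinned to precursor depth and 10409 in a test against a 2-fold change. Of the calls, 52.7% were higher in dMSN, and 50 to 54% under these alternatives. The median log2 change of all genes, 0.14, was 0.07 under RLE scaling, 0.01 after thinning and 0.25 without SP, so small changes are relative to a centre that moves by about that much. None of the calls that could be tested again turned its sign under these alternatives. Of 723 calls on listed genes, 22 were lost without HP, 17 without SP, 42 without dMSN 1, 47 without dMSN 2 and 113 in the test against a 2-fold change. No paired analysis was possible because the sides share only replicate number 1.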
